A study of Mus musculus with 16 samples.

Results

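The kidney returns calcium to the blood along the distal convoluted and connecting tubule through a transcellular route. Calcium enters the cell from the urine through the channels TRPV5 and TRPV6, crosses it bound to the calbindins, and leaves on the blood side through the sodium-calcium exchanger and the plasma membrane calcium pumps. Active vitamin D and parathyroid hormone are known to raise this transport, and the calcium-sensing receptor and claudin 14 act on calcium that passes between cells of the thick ascending limb. The 10 genes described here encode that route and its neighbours in the distal tubule: the calbindins S100g and Calb1, the channels Trpv5 and Trpv6, the exchanger Slc8a1, the pumps Atp2b1 and Atp2b4, the receptor Casr, the claudin Cldn14, and Klk1, the tissue kallikrein that the connecting tubule secretes. They were taken by name, 10 of the 30277 genes in the deposited tables, and all 10 were present in both tables. They were chosen by name and role, with earlier results of these data known.

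Polyadenylated RNA was sequenced from perfused, flash-frozen kidneys of 129S1/SvlmJ mice, an inbred strain onto which the recessive Kl mutation of the Klotho gene had been backcrossed more than 10 times. The allele is inherited through the germline, so it is not limited to the kidney. The 4 groups were 3 male controls of genotype +/Kl, 5 male Kl/Kl mice, 4 female controls of genotype +/+ and 4 female Kl/Kl mice, aged 44 to 54 days. Renal failure is recorded for the Kl/Kl mice, and healthy renal function for the controls. Values were in TPM, a transcripts-per-million scale, in 1 table for each sex, scaled separately, so sex, table and control genotype (heterozygous in males, wild type in females) cannot be told apart, and Kl/Kl was compared with control within each table. The labels do not say that each library came from a separate animal, so each p-value measures only how these libraries scatter, which may be technical. In whole kidney, fewer cells of a type and less RNA per cell cannot be told apart.

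Estimated depth was 21600560 to 31809781 reads per library, and Kl itself lay lower in every library labelled Kl/Kl (0.0235 to 0.518 TPM) than in every control (4.14 to 21.2 TPM). A pair of libraries stood apart. In the library labelled female Kl/Kl replicate 3 (54 days old), the 6 distal convoluted tubule markers summed to 0.516 TPM, against 36.3 to 44.0 TPM in the other female libraries, and its Kl level therefore checks no label. Heart muscle markers summed to 1933 TPM there and to at most 2.03 TPM in the other 15 libraries, and airway markers to 1058 TPM against at most 0.41 TPM. In male control replicate 3, mitochondrial genes took 54.3% of the values, against 35.4% to 44.8% in the other 15 libraries. The fits of the 10 genes are given with and without these libraries, and level orders, nearest profiles and the other gene lists without them unless stated. Female Kl/Kl replicate 2 was kept, though its red blood cell markers summed to 1234 TPM, against 32.6 to 406 TPM in the other 15 libraries. What part this has in the female values was not tested.

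S100g passed the limma test in males, as 1 of 9 genes tested, where 3.2% of all genes were called higher. Because it is known as a vitamin D-responsive gene, and because Trpv5 and Trpv6 lie side by side in the genome, the 250 bases before the start of these 3 genes are shown, 5′ to 3′ on the gene's strand, from RefSeq on GRCm38.p6. Capitals mark AGGTCA or its reverse complement TGACCT, the letters of a nuclear receptor half-site. The windows are chrX:162964600-162964849 for S100g, chr6:41680724-41680973 for Trpv5 and chr6:41636406-41636655 for Trpv6, all on the minus strand.
S100g: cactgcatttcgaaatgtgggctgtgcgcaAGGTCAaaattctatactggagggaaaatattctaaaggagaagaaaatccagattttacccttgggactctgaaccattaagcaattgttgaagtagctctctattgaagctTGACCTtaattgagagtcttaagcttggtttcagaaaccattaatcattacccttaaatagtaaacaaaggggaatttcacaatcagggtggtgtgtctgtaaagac
Trpv5: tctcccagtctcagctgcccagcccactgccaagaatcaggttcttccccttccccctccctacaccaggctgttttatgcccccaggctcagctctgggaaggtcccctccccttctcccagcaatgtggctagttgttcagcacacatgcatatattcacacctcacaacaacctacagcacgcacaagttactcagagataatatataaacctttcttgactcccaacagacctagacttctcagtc
Trpv6: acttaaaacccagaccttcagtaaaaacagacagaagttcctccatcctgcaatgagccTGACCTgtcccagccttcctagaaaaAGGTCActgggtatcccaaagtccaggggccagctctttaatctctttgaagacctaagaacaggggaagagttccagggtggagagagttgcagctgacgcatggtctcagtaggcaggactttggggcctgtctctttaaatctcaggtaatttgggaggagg

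The S100g window held 2 half-sites, beginning 220 and 107 bases before the start, and the Trpv6 window held 2, at 191 and 165 bases. None of these letters was in the Trpv5 window, which held TATAAA on the gene's strand 43 bases before the start, a word found in 7.59% of all windows. AGGTCA on either strand occurred in 14.0% of the 32851 RefSeq windows of the same length, so a match is common and is given as a description only. A direct repeat of half-sites with 3 bases between, the form the vitamin D receptor is known to bind, was searched on both strands. For this search a half-site was A or G, then G, then G or T, then TCA, and the repeat occurred in 0.0396% of windows. It was in no window of the 9 genes with an entry, all but Calb1, which says only that these letters are not there.

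The calbindins behaved differently from each other. S100g (calbindin-D9k, chromosome X, 161744988 to 161747595 in mm39) encodes a small cytosolic calcium-binding protein. In male controls 1, 2 and 3 it stood at 54.6, 44.7 and 69.0 TPM, and in Kl/Kl males 1 to 5 at 187, 188, 193, 206 and 148 TPM. Every Kl/Kl library lay above every control, and the highest control was replicate 3. S100g rose in Kl/Kl males to 3.28 times the control mean, from 56.1 ± 12.2 (SD, n = 3) to 184 ± 21.7 TPM (SD, n = 5). On the log2(TPM + 0.1) scale, used for every change below, the rise was 1.73 (SE 0.19, limma adjusted p = 0.0011), and without control 3 it was 1.89 (SE 0.16, limma adjusted p = 0.0011).

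In females S100g stood at 76.2, 86.8, 70.2 and 68.9 TPM in controls 1 to 4. The Kl/Kl females 1 to 4 had 147, 171, 0.586 and 123 TPM. Replicates 1, 2 and 4 lay above every control, and replicate 3, the library with nearly no tubule markers, lay far below. With all 8 libraries the change was -0.98 (SE 1.71, limma adjusted p = 0.80). Without replicate 3 the means were 75.5 ± 8.16 (SD, n = 4) and 147 ± 24.0 TPM (SD, n = 3), a ratio of 1.95 and a change of 0.96 (SE 0.13, 95% interval 0.65 to 1.26) that did not pass the threshold (limma adjusted p = 0.108). Its unadjusted limma p was 0.00012. The exact permutation p was 0.0571, the smallest that 4 against 3 allows. A voom fit on estimated reads, added after seeing the data, called it (limma-voom adjusted p = 0.0367).

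The difference between the male and the female change in S100g was 2.71 with all 16 libraries (limma adjusted p = 0.53). Without both libraries that stood apart it was 0.93 (SE 0.21, 95% interval 0.48 to 1.38, limma adjusted p = 0.0354), with the larger change in males. Of 9 genes tested, S100g was the one called in that direction, where 0.392% of all genes were called. Leaving out the female library alone gave 0.77 (limma adjusted p = 0.184). With all 16 libraries, array weights, which give less weight to scattered libraries, gave 0.98 (limma adjusted p = 0.0405). With all libraries and no weights, 0.0396% of all genes and 0 of the 9 were called in that direction, 0 of them at an unadjusted p under 0.05 and 0 by voom. Male controls carried 1 mutant allele and female controls none, and this, sex and table cannot be told apart.

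**Figure D1:**
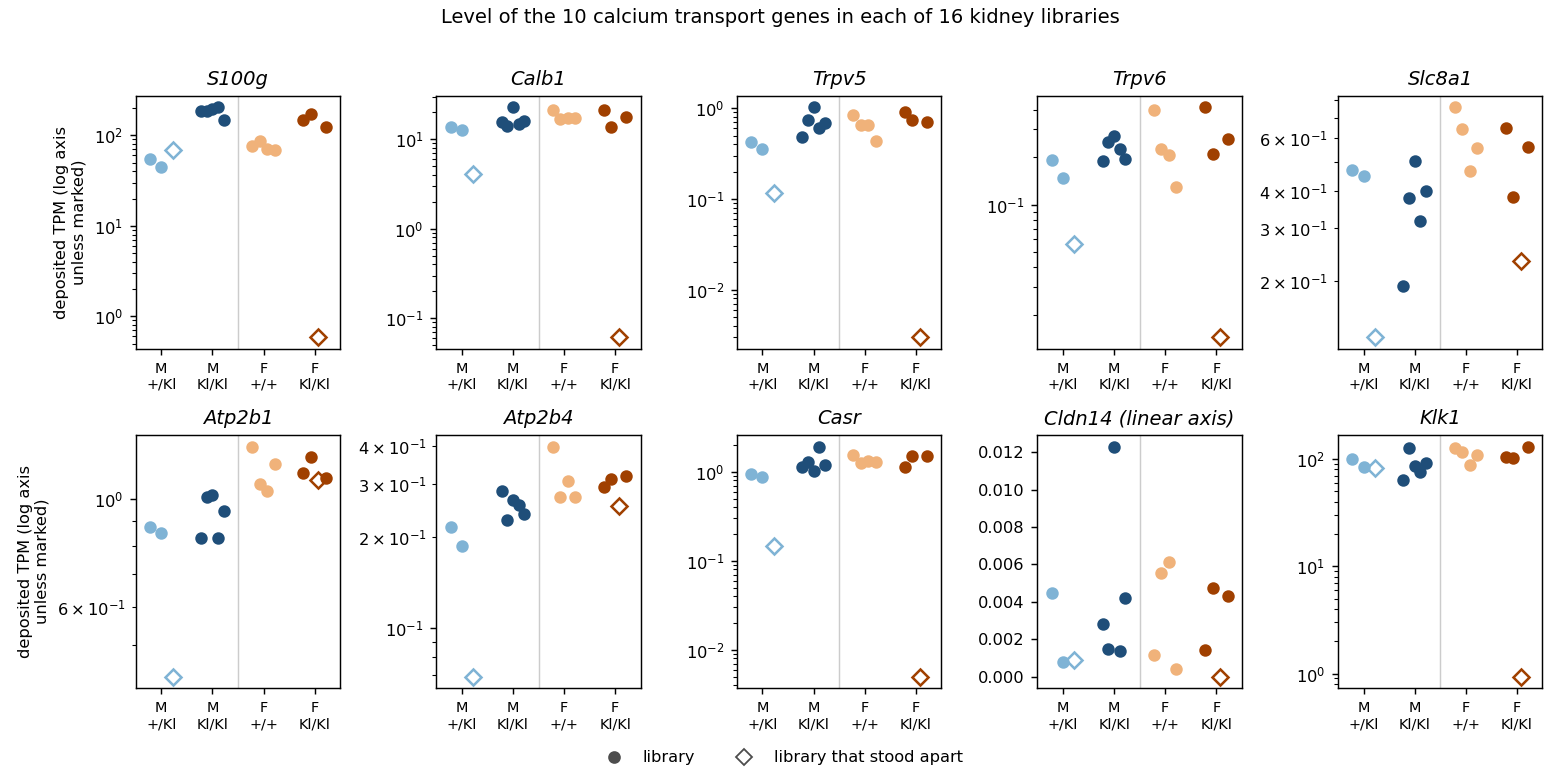
Deposited TPM of the 10 genes in each of 16 libraries (log axes, Cldn14 linear), by sex (M, F) and genotype. Filled circles are libraries and open diamonds the 2 that stood apart; S100g is the gene whose 5 male Kl/Kl libraries (148 to 206 TPM) lie well above its male controls (44.7 to 69.0 TPM).

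Calb1 (calbindin-D28k, chromosome 4, 15881264 to 15908064) encodes the larger calbindin of the distal tubule. In males it was 13.8, 12.6 and 4.07 TPM in controls 1 to 3 and 15.6, 14.2, 22.9, 14.8 and 15.9 TPM in Kl/Kl mice 1 to 5. The groups did not overlap, and control 3 lay far below the other controls. The change was 0.87 (SE 0.38, limma adjusted p = 0.18) with control 3 and 0.31 (95% interval -0.14 to 0.77, limma adjusted p = 0.33) without it. Female controls had 21.3, 17.0, 17.1 and 17.5 TPM and Kl/Kl females 21.3, 13.6, 0.0612 and 17.7 TPM. These groups overlapped, and without Kl/Kl replicate 3 the change was -0.07 (95% interval -0.44 to 0.30, limma adjusted p = 0.85).

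To set the calbindins side by side, estimated reads were divided by the exon length of each gene. On this scale S100g was 3.89 and 3.49 times Calb1 in male controls 1 and 2, and 11.8, 13.0, 8.27, 13.7 and 9.13 times in Kl/Kl males 1 to 5. In female controls the ratio was 3.51, 5.02, 4.03 and 3.87, and in Kl/Kl females 1, 2 and 4 it was 6.80, 12.4 and 6.85. The Kl/Kl libraries therefore lay above the controls in both tables without the libraries that stood apart. Male control 3 had a ratio of 16.6, above every Kl/Kl male, through a high S100g and a low Calb1. Female Kl/Kl replicate 3 had 9.40, from 54.1 estimated S100g reads. Whether reads in introns were counted is not known, so the size of a ratio between genes of unlike span is uncertain.

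**Figure D2:**
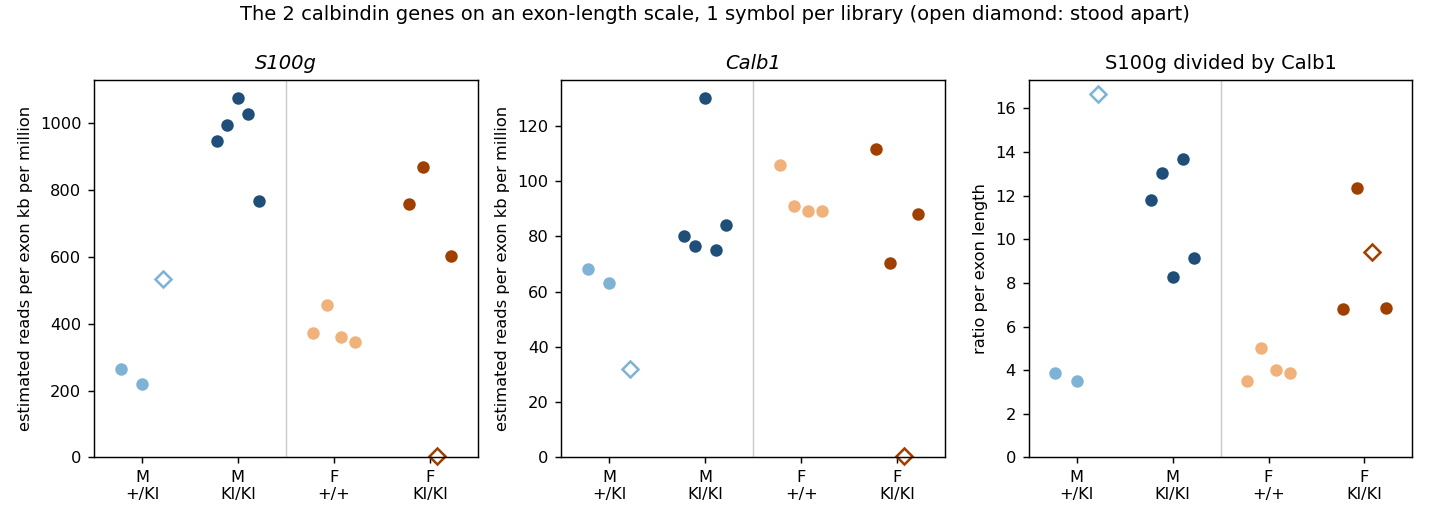
Estimated reads per exon kilobase, on a per-million scale of library reads, of S100g and Calb1 and their ratio in each library, by sex and genotype, with open diamonds for the 2 libraries that stood apart. Leaving those 2 out, S100g is higher in Kl/Kl than in control libraries while Calb1 overlaps in females, and the ratio in male control 3 (16.6) stands above that of all other libraries.

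The entry channels did not pass the test in either sex. Trpv5 (chromosome 6, 41629107 to 41657703) encodes the main apical calcium channel of the kidney. Its level was 0.424, 0.356 and 0.115 TPM in male controls 1 to 3 and 0.482, 0.745, 1.03, 0.601 and 0.696 TPM in Kl/Kl males 1 to 5. Every Kl/Kl male lay above every control, with control 3 lowest. The change was 1.09 (SE 0.32, limma adjusted p = 0.0759), and the unadjusted limma p was 0.0070. Without control 3 it was 0.70 (95% interval 0.13 to 1.26, limma adjusted p = 0.119), and the groups still did not overlap. With all 8 libraries voom (limma-voom adjusted p = 0.0255) and limma with array weights (adjusted p = 0.0085) each called it. These fits called 11.2% and 15.2% of all genes higher. Without control 3 voom did not call Trpv5. Female controls 1 to 4 had 0.851, 0.652, 0.659 and 0.431 TPM, and Kl/Kl females 0.905, 0.736, 0.00297 and 0.702 TPM. These overlapped, with a change of 0.26 without replicate 3 (95% interval -0.20 to 0.71, limma adjusted p = 0.55).

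Trpv6 (chromosome 6, 41597558 to 41613339) encodes the related channel best known from the intestine and lies 15767 bases from Trpv5 on the same strand. Male controls had 0.192, 0.147 and 0.0565 TPM, and Kl/Kl males 0.190, 0.250, 0.273, 0.224 and 0.196 TPM. Control 1 lay within the Kl/Kl range. The change was 0.54 (limma adjusted p = 0.189) and without control 3 it was 0.28 (95% interval -0.12 to 0.68, limma adjusted p = 0.33). In females the values were 0.400, 0.226, 0.207 and 0.128 TPM in controls and 0.416, 0.209, 0.0143 and 0.260 TPM in Kl/Kl mice. They overlapped, and without replicate 3 the change was 0.24 (95% interval -0.44 to 0.91, limma adjusted p = 0.72). The estimated reads for Trpv6 were 52 to 194 per library outside the 2 libraries that stood apart, the fewest of the 9 genes tested. Per exon length, Trpv5 was 4.67 to 8.32 times Trpv6 across the other 14 libraries. In males the ratio was 4.87 and 5.33 in controls 1 and 2 and 5.59 to 8.32 in Kl/Kl mice, without overlap. In females it was 4.67 to 7.38 in controls and 4.79 to 7.74 in Kl/Kl mice, with overlap. None of these ratios was tested.

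On the extrusion side no gene passed the test. Slc8a1 (chromosome 17, 81680534 to 82045806) encodes the sodium-calcium exchanger NCX1. It was 0.470, 0.448 and 0.129 TPM in male controls and 0.192, 0.377, 0.504, 0.317 and 0.399 TPM in Kl/Kl males. The change was 0.10 (limma adjusted p = 0.87), and without control 3, the lowest library, the direction turned to -0.33 (95% interval -0.94 to 0.29, limma adjusted p = 0.45). Female controls had 0.760, 0.642, 0.464 and 0.553 TPM and Kl/Kl females 0.647, 0.382, 0.232 and 0.558 TPM. They overlapped, and the change without replicate 3 was -0.17 (95% interval -0.62 to 0.28, limma adjusted p = 0.70).

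Atp2b1 (chromosome 10, 98750268 to 98862005) encodes the plasma membrane calcium pump PMCA1. Its level was 0.877, 0.850 and 0.430 TPM in male controls and 0.830, 1.01, 1.02, 0.831 and 0.946 TPM in Kl/Kl males. Controls 1 and 2 lay inside the Kl/Kl range, and the change was 0.37 (limma adjusted p = 0.32) or, without control 3, 0.09 (95% interval -0.21 to 0.38, limma adjusted p = 0.68). Female controls had 1.28, 1.07, 1.04 and 1.18 TPM and Kl/Kl females 1.13, 1.22, 1.09 and 1.11 TPM. The females overlapped, at a change of 0.01 without replicate 3 (95% interval -0.20 to 0.22, limma adjusted p = 0.96).

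Atp2b4 (chromosome 1, 133627195 to 133728779) encodes the pump PMCA4. Male controls had 0.217, 0.187 and 0.0689 TPM, and Kl/Kl males 0.285, 0.228, 0.265, 0.255 and 0.239 TPM. No Kl/Kl library lay as low as a control. The change was 0.51 (limma adjusted p = 0.20), and voom called it (limma-voom adjusted p = 0.0425), but without control 3 it was 0.23 (95% interval -0.10 to 0.56, limma adjusted p = 0.32). Voom did not call Atp2b4 without control 3. In females, controls had 0.399, 0.272, 0.308 and 0.272 TPM and Kl/Kl mice 0.294, 0.311, 0.253 and 0.318 TPM. These overlapped, at a change of -0.01 without replicate 3 (95% interval -0.31 to 0.29, limma adjusted p = 0.98).

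Casr (chromosome 16, 36314058 to 36382503) encodes the calcium-sensing receptor, which in the thick ascending limb lowers calcium reabsorption when blood calcium is high. It was 0.947, 0.875 and 0.145 TPM in male controls and 1.12, 1.30, 1.01, 1.92 and 1.19 TPM in Kl/Kl males. The groups did not overlap, and control 3 was far below the other controls. The change was 1.13 (SE 0.45, limma adjusted p = 0.151), and without control 3 it was 0.45 (95% interval -0.08 to 0.97, limma adjusted p = 0.24). Female controls had 1.53, 1.24, 1.33 and 1.28 TPM and Kl/Kl females 1.12, 1.5, 0.00496 and 1.49 TPM. They overlapped, with a change of 0.01 without replicate 3 (95% interval -0.27 to 0.30, limma adjusted p = 0.97).

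Cldn14 (chromosome 16, 93715919 to 93809696) encodes a claudin that closes the paracellular calcium path. It was at most 0.0123 TPM, from at most 34 estimated reads in a library, and lay under the filter of a mean of 0.1 TPM, so it has no limma test. The means were 0.00205 ± 0.00211 (SD, n = 3) and 0.00444 ± 0.00454 TPM (SD, n = 5) in males (exact permutation p = 0.43). They were 0.00332 ± 0.00295 (SD, n = 4) and 0.00262 ± 0.00228 TPM (SD, n = 4) in females (exact permutation p = 0.60). Without the libraries that stood apart the exact permutation p was 0.76 in males and 0.97 in females. A difference was not detectable at this depth.

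Klk1 (chromosome 7, 43874784 to 43879042) encodes tissue kallikrein, a protease that the connecting tubule releases and that is known to raise TRPV5 at the cell surface. It stood at 99.1, 83.9 and 82.7 TPM in male controls and 63.6, 125, 86.3, 75.4 and 91.2 TPM in Kl/Kl males. The controls lay inside the Kl/Kl range. The change was -0.04 (95% interval -0.54 to 0.47, limma adjusted p = 0.93), and without control 3 it was -0.08 (limma adjusted p = 0.85). Female controls had 127, 116, 87.6 and 109 TPM and Kl/Kl females 105, 103, 0.930 and 130 TPM. Without replicate 3 the change was 0.04 (95% interval -0.29 to 0.37, limma adjusted p = 0.91). Of its 1072 stretches of 50 exonic bases, 24.0% also occur in other Klk1-family transcripts such as Klk1b5 and Klk1b3, so some reads could have been shared between them. No other of the 10 genes shared more than 1.27%.

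**Figure D3:**
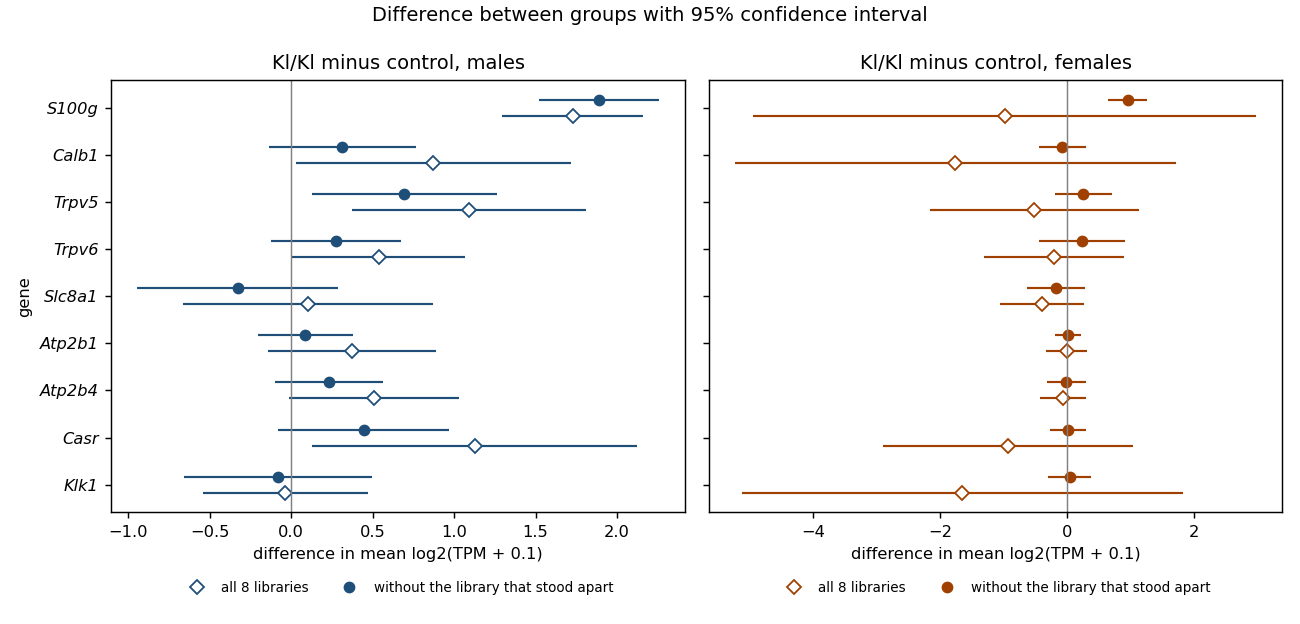
Kl/Kl minus control difference in mean log2(TPM + 0.1) of the 9 genes tested, with 95% confidence intervals (lines), in males (left) and females (right, wider axis). Open diamonds use all 8 libraries and filled circles leave out the library that stood apart; only the S100g interval lies above 0 in both sexes once that library is left out.

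Over all genes tested in males, 3.2% were called higher and 2.03% lower, and of the 9 genes here 1 was called higher and 0 lower. Without control 3, 2.56% of all genes were called higher and 4.51% lower, against 1 and 0 of the 9. At an unadjusted p under 0.05, 5 of the 9 were higher with all libraries, beside 20.7% of all genes, and 2 (S100g and Trpv5) without control 3, beside 14.7%. Without control 3 the share of the 9 is near that of all genes. Groups that did not overlap, with Kl/Kl higher, were found for 5 of the 9 (S100g, Calb1, Trpv5, Atp2b4 and Casr) and for 19% of all genes with all libraries, and for the same 5 genes against 20.8% without control 3. With Kl/Kl lower, 0 of the 9 did not overlap, beside 3.99% and 17.7% of all genes. The median change of the 9 was 0.54 beside 0.27 over all genes, and 0.28 beside 0.06 without control 3.

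In females 0% of all genes were called in either direction, with all libraries or without replicate 3, and 0 of the 9 genes. Voom called 0 genes with all libraries, and without replicate 3 it called 17 higher, S100g among them, and 15 lower. At an unadjusted p under 0.05 there were 757 genes (4.27%) with all libraries, none of the 9, and 2583 (14.8%) without replicate 3. In the latter fit 10.8% of all genes were higher and 3.93% lower, and S100g, higher, was the one of the 9. Without replicate 3, groups that did not overlap with Kl/Kl higher were found for S100g alone of the 9 and for 10.1% of all genes, and with Kl/Kl lower for 0 of the 9 and 3.42%. The median change of the 9 was 0.01 beside 0.08 over all genes, and with all libraries it was -0.51 beside -0.19. With all libraries the changes of the 8 genes other than S100g ran from -1.76 (Calb1) to -0.00 (Atp2b1), and none of the 9 had groups that did not overlap, where 3.5% of all genes did with Kl/Kl higher and 3.04% with Kl/Kl lower.

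Both libraries that stood apart moved the 10 genes unevenly. In male control 3, S100g was 1.39 times the mean of the other male controls and Klk1 0.904 times, while the others lay between 0.160 (Casr) and 0.498 (Atp2b1) times. S100g and Klk1 have the shortest genomic spans of the 10, 2.61 and 4.26 kb. Over protein-coding genes the median ratio also went down with span, 0.725 for 1676 genes under 5 kb, 0.629 and 0.533 in the middle classes and 0.444 for 2168 genes over 60 kb. What part this has in the male differences was not tested. The direction with control 3 left out was the same for every gene tested but Slc8a1.

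**Figure D4:**
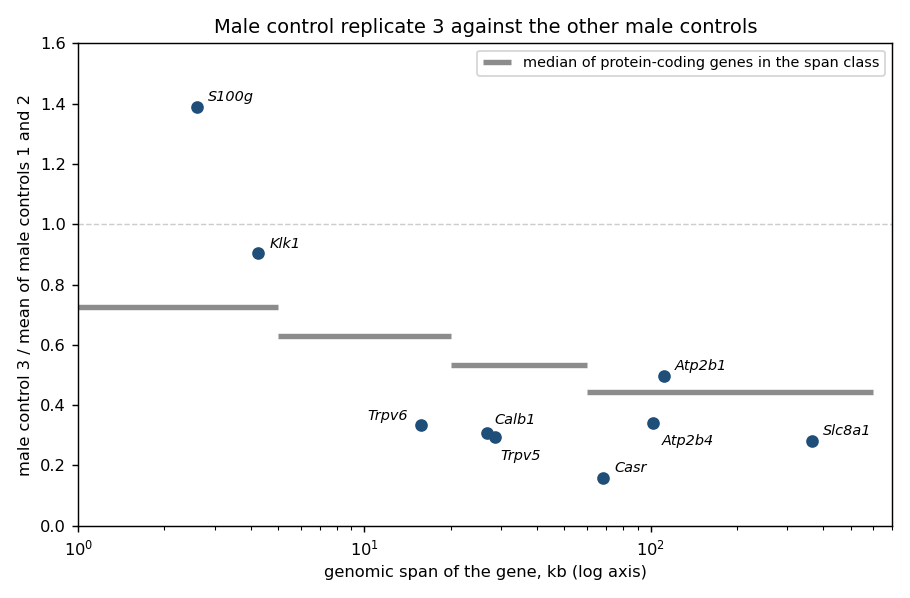
Level in male control replicate 3 divided by the mean of male controls 1 and 2 (vertical axis) against genomic span in kilobases (log axis), for the 9 genes tested (points) and as the median of all protein-coding genes in 4 span classes (grey bars). S100g (1.39) and Klk1 (0.904) lie above the median of their class and of the others only Atp2b1 (0.498).

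In female Kl/Kl replicate 3 the ratio to the other Kl/Kl females was 0.0040 for S100g, 0.0035 for Calb1, 0.0038 for Trpv5, 0.0036 for Casr, 0.0083 for Klk1 and 0.0486 for Trpv6. Slc8a1 stood at 0.439, Atp2b4 at 0.823 and Atp2b1 at 0.949. As background, the first 6 are known in the kidney mainly from tubule cells, while the exchanger and the pumps are known from heart and many other tissues too. The heart and airway markers given above were high in the same library.

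Ordered by median estimated reads per exon kilobase, on a per-million scale of library reads, over the 14 other libraries, the 10 genes kept nearly 1 order. In female controls it was Klk1 (421), S100g (365), Calb1 (90.2), Casr (17.9), Slc8a1 (11.0), Atp2b1 (7.81), Trpv5 (5.52), Atp2b4 (2.30), Trpv6 (0.83) and Cldn14 (0.141). Klk1 and S100g overlapped there, and no other neighbours did. The order was the same in male controls 1 and 2, without overlap between neighbours. In Kl/Kl males S100g (995) stood above Klk1 (345) without overlap, and in Kl/Kl females S100g (758) stood above Klk1 (393) without overlap. In both Kl/Kl groups Slc8a1, Atp2b1 and Trpv5 overlapped with their neighbours in the order, and the rest did not. If reads in introns were counted, which is not known, genes with long introns would stand too high in this order.

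Markers of the tubule segments gave the S100g values a reference within each library. The 6 distal convoluted tubule markers, among them the thiazide-sensitive cotransporter Slc12a3, summed to 29.2 and 29.7 TPM in male controls 1 and 2 and to 28.7 to 37.7 TPM in Kl/Kl males, with 0 of 6 called by limma, 2 higher at an unadjusted p under 0.05 and 2 (Klhl3 and Wnk4) by voom. In this male comparison without control 3, 14.7% of all genes were higher and 13.3% lower at an unadjusted p under 0.05, and voom called 8.55% higher and 5.04% lower, and a count of 2 in 6 is not read as a result about the list. Slc12a3 was 14.4 ± 0.201 (SD, n = 2) and 14.9 ± 1.92 TPM (SD, n = 5) in males, and Wnk4, a kinase that regulates it, 9.31 ± 0.312 and 12.8 ± 1.65 TPM. Pvalb, the calcium-binding protein parvalbumin, was 3.04 ± 0.0843 and 1.81 ± 0.692 TPM (limma adjusted p = 0.21). In females they summed to 42.4 to 44.0 TPM in controls and 36.3 to 39.5 TPM in Kl/Kl mice without replicate 3, with 0 of 6 called by limma or voom and 2 lower at an unadjusted p under 0.05, beside 3.93% of all genes. Those were Slc12a3, at 22.6 ± 0.513 (SD, n = 4) and 18.6 ± 1.83 TPM (SD, n = 3; limma adjusted p = 0.178), and Pvalb, at 3.62 ± 0.299 and 2.71 ± 0.234 TPM (limma adjusted p = 0.155). The 9 markers of connecting tubule and collecting duct principal cells summed to 104 and 131 TPM in male controls 1 and 2 and to 183 to 265 TPM in Kl/Kl males. Control 3 had 78.8 TPM, and 18.8 TPM for the distal convoluted tubule list. Of the 9, Aqp2, the vasopressin-regulated water channel, rose by 1.31 (limma adjusted p = 0.0472), and Scnn1g, a subunit of the epithelial sodium channel, by 0.69 (limma adjusted p = 0.0223). At an unadjusted p under 0.05, 5 of the 9 were higher, and voom called the same 5, Aqp2, Scnn1g, Aqp3, Scnn1a and Scnn1b, with and without control 3. In females this list summed to 136 to 166 TPM in controls and 167 to 182 TPM in Kl/Kl mice without replicate 3, with 0 of 9 called by limma, at an unadjusted p under 0.05 or by voom. In males without control 3, Fxyd4, Avpr2, Hsd11b2 and Aqp4 of the list changed by -0.08, 0.04, 0.11 and 0.24. Their limma adjusted p was 0.87, 0.96, 0.69 and 0.76. The 5 genes called by voom rose with S100g in males. What part this list has in the S100g rise was not tested beyond the ratios that follow.

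Relative to the mean log2 level of the distal convoluted tubule markers in the same library, S100g was 1.73 higher in Kl/Kl males without control 3 (1.36 with it) and 1.04 higher in Kl/Kl females without replicate 3. Relative to the connecting tubule and collecting duct markers, it was 1.43 (1.07 with control 3) and 0.91 higher. The 8 thick ascending limb markers gave 1.93 (1.45 with control 3) and 1.04. In each of these comparisons every Kl/Kl library lay above every control, whereas with female replicate 3 included the female groups overlapped for all 3 references. The exact permutation p was 0.0357 with all male libraries, 0.0952 without control 3 and 0.0571 in females without replicate 3, each the smallest its design allows. These references were added after seeing the data. In males, with and without control 3, Calb1, Trpv5, Atp2b4 and Casr overlapped relative to the distal convoluted and the connecting tubule lists. Relative to the connecting tubule list, Klk1 lay lower in Kl/Kl males without overlap (-0.69, and -0.54 without control 3). In females without replicate 3 it overlapped (-0.01). Against the thick ascending limb markers Trpv5 lay higher in males without overlap (0.81, and 0.74 without control 3).

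In the list of 12 genes for vitamin D, parathyroid hormone and FGF23 signalling, 9 were tested in males without control 3, and 2 rose and 1 (Kl) fell. Cyp27b1, the enzyme that makes active vitamin D, rose from 1.45 ± 0.268 (SD, n = 2) to 17.5 ± 4.05 TPM (SD, n = 5), by 3.48 (limma adjusted p = 0.00049). Gc, the plasma carrier of vitamin D, rose from 0.680 ± 0.137 to 14.4 ± 4.70 TPM, by 4.15 (limma adjusted p = 0.0015). Vdr, the vitamin D receptor, was 4.54 ± 0.449 and 4.05 ± 1.41 TPM, and Pth1r, the parathyroid hormone receptor, 20.6 ± 0.185 and 11.0 ± 2.67 TPM (limma adjusted p = 0.67 and 0.0632). In females without replicate 3, 0 of 9 were called by limma, 3 higher and 2 lower at an unadjusted p under 0.05 and 2 (Cyp27b1 and Kl) by voom. Of all genes in that comparison, 10.8% were higher and 3.93% lower at the unadjusted p, and voom called 0.0971% higher and 0.0857% lower. Cyp27b1 was 1.96 ± 1.08 (SD, n = 4) and 16.5 ± 1.84 TPM (SD, n = 3) there (limma adjusted p = 0.108, unadjusted 8.6e-05), and Vdr 4.63 ± 0.681 and 3.67 ± 0.540 TPM (limma adjusted p = 0.34). Cyp24a1, which breaks active vitamin D down, spread widely, at 3.10 ± 2.15 and 5.61 ± 4.47 TPM in males and 15.1 ± 6.65 and 10.2 ± 1.57 TPM in females.

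Among 12 tested partners and regulators of the entry channels, 1 rose and 1 fell in males without control 3. Anxa2, an annexin that carries TRPV5 and TRPV6 to the membrane with S100a10, rose from 1.18 ± 0.154 to 1.92 ± 0.250 TPM, by 0.66 (limma adjusted p = 0.0496). S100a10 itself was 8.49 ± 0.613 and 8.12 ± 1.24 TPM (limma adjusted p = 0.80). Fkbp4, an immunophilin known to bind TRPV5, fell by 1.09 on the log2 scale (limma adjusted p = 0.0399), with 29.1 ± 5.98 TPM in controls and 13.8 ± 3.00 TPM in Kl/Kl males. With control 3 included, Anxa2 alone of these was called by limma. Voom called Slc9a3r2, Sgk1, Fkbp4 and Anxa2 with all libraries (3 higher, 1 lower), and Wnk4 as well without control 3 (4 higher, 1 lower). At an unadjusted p under 0.05, 4 of the 12 were higher with all libraries, and 4 higher and 2 lower without control 3. With all libraries voom called 11.2% of all genes higher and 4.76% lower, and 20.7% and 5.47% were so at the unadjusted p. The shares without control 3 are given above. Of 9 tested pumps, exchangers and store channels outside the 10 genes, Itpr3, an IP3 receptor, rose in males from 0.17 ± 0.00065 to 0.313 ± 0.0341 TPM, by 0.61 (limma adjusted p = 0.0487), and with control 3 included 0 were called by limma, with 5 higher at an unadjusted p under 0.05, beside 20.7% of all genes, and 4 by voom, beside 11.2%. Of the 6 tested genes of the paracellular path 0 were called in males without control 3, 1 higher and 1 lower at an unadjusted p under 0.05 and 1 (Tjp1) by voom, to be read against the shares of all genes given above. Cldn2, the proximal tubule claudin, was 67.6 ± 7.60 and 59.1 ± 7.00 TPM there. Of the 3 tested kallikreins, Klk1 included, 0 were called by limma, at an unadjusted p under 0.05 or by voom. In females without replicate 3, limma and voom called 0 genes of these 4 lists. At an unadjusted p under 0.05 there were 2 partners (1 higher, 1 lower), 1 pump or channel (lower), 0 paracellular genes and 0 kallikreins. Of all genes, 10.8% were higher and 3.93% lower at that p there. Vdr, Pth1r, Cyp24a1 and S100a10 were named for their known roles after their values had been seen, as were Klhl3, Pvalb, Aqp3, Scnn1a, Scnn1b and Tjp1. Fxyd4, Avpr2, Hsd11b2, Aqp4, Slc9a3r2 and Sgk1 were also named after their values had been seen.

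The genes whose profiles lay nearest to a given gene were found by the root mean square distance of log2 values, centred within each table, over 14 libraries and 6357 genes. For S100g they were Klhdc9 (0.231), Rbm3 (0.238) and Fgl2 (0.273). For Calb1 they were Slc6a13 (0.136), Steap2 (0.151) and Abca7 (0.152). For Trpv5 they were Tspan1 (0.171), Maged2 (0.189) and Fkbp11 (0.202), and for Klk1 they were Bace1 (0.148), Zfp397 (0.148) and Bsnd (0.149). The distances are descriptions over libraries that share groups and depth. None of the 10 genes was among these nearest 3. Only 6357 of the 30277 genes served as candidates, so those of the 10 at low levels may not have been eligible. Their absence therefore says nothing about whether the 10 share profiles.

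S100g lies wholly inside the span of Ctps2 on the opposite strand, and Ctps2 was at most 0.321 TPM in any library. Use of strand in the authors' counting is not given in the sources used here, so reads of the pair could not be separated, but the level of Ctps2 per base was far below that of S100g outside female Kl/Kl replicate 3.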

How the data were processed

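Expression of 30277 genes was deposited by the authors as TPM, males and females in tables of 8 libraries each. Partek and build mm39 are named in the submitters' processing notes and a directional library kit in the labels' protocols. Aligner, counting and strand setting: not given in the sources used here. The values point to TPM computed over the genomic span, introns included, which no source used here states. Among genes with the commonest profile of ratios between libraries (840 in males, 1030 in females), value times span lay within 1% of its median for 95.7% and 94.6%, and value times exon length for 0.238% and 0.388%. All male columns summed to 285327 and all female columns to 265288, and no value was 0, since about 0.0001 read had been added. Dividing by that offset gave estimated reads, 21600560 to 31809781 per library, with 75.3% to 77.3% of low values whole within 0.05. They are estimates, so the errors given are SDs over libraries. Levels were compared between genes per exon length of GENCODE vM21. Deposited gene stops lie 1 base past the last base and were printed less 1. The labels' numbering was not used to pair libraries.

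Each table was fitted with limma 3.58.1 in R 4.3.3 on log2(TPM + 0.1), with trended eBayes, keeping genes whose mean reached 0.1 TPM, with Benjamini-Hochberg adjustment over all genes tested and a threshold of 0.05. A pseudocount and filter of 1 TPM were an alternative, since long genes lie low on a span scale. The difference between the sexes' changes came from a 4-group model of all 16 libraries. Exact permutation tests (two-sided) used SciPy 1.17.1 under Python 3.11.15, with pandas 2.3.3, NumPy 2.4.6 and matplotlib 3.10.9 for the tables and plots. The fit was tested on simulated data, drawn for the comparisons without the libraries that stood apart. The 10 genes, the 19 gene lists and the tests were chosen with earlier results of these data known. Named genes were the 10 genes, Kl, from each list up to 4 genes past the threshold without the libraries that stood apart (otherwise up to 2 as values), and the 3 nearest profiles of S100g, Calb1, Trpv5 and Klk1. Alternatives were other pseudocounts, filters and scalings, voom on estimated reads, array weights, a replicate block, age, library name prefix and leaving out each library.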

Additional observations from a re-analysis of the deposited data

Results flagged for a closer look

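Of 30 groups of 4 or 5 libraries examined, 3 held a library farther from the rest than Dixon's 95% limit, where chance gives about 1 in 20. Calb1 stood at 22.9 TPM in male Kl/Kl replicate 3, with the next library at 15.9 TPM, and at 21.3 TPM in female control replicate 1, with the next at 17.5 TPM. Cldn14 was 0.0123 TPM in male Kl/Kl replicate 3, with the next library at 0.0042 TPM, from 34 and 12 estimated reads. None of the 3 was female Kl/Kl replicate 3. Male control 3 could not be flagged, since its group of 3 libraries was too small to be examined.

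The change in S100g differed between the male and the female table by 0.93 on the log2 scale without both libraries that stood apart (limma adjusted p = 0.0354). Sex, table and control genotype cannot be told apart in it. Over the alternatives of that difference, with and without those libraries, the adjusted p ran from 0.0208 to 0.82.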

How the results depend on the processing

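Of 581 values of single genes recomputed under an alternative, 528 kept their direction and side of the threshold, 43 reversed, 9 came to pass and 1 ceased to pass. Where a value moved or reversed, the cause was not tested. S100g in males lay between 1.43 and 1.98 in every alternative, and the call was lost only in the fit without control 3 with the replicate block (1.92, limma adjusted p = 0.0676). The count of the 9 genes called higher in males was 1 in the reported fit, 3 with voom (11.2% of all genes called higher), 2 with array weights (15.2%) and 0 without control 3 with the replicate block. In females it was 0, and 1 with voom without Kl/Kl replicate 3. For the difference between the sexes' changes it was 0, and 1 with array weights and, without both libraries, 1 as such and 1 each with median-of-ratios scaling, non-mitochondrial rescaling, voom or a pseudocount and filter of 1 TPM. It was 0 there with the replicate block (S100g 1.00, limma adjusted p = 0.0563). Leaving out 1 library at a time gave 1 to 1 called higher in males and 0 to 0 for the other counts. S100g in females reversed to 0.94 with array weights and, without replicate 3, to 0.96, to 0.87 with median-of-ratios scaling, 0.89 rescaled to non-mitochondrial genes, 0.95 with voom, 0.95 with a pseudocount of 1 TPM and 0.92 with the replicate block. Array weights also turned Slc8a1 in males to -0.22 and Klk1 in males to 0.088, and in females Trpv5 to 0.31, Trpv6 to 0.35, Atp2b1 to 0.046, Atp2b4 to 0.041, Casr to 0.033 and Klk1 to 0.081. Median-of-ratios scaling turned Slc8a1 in males to -0.090 and in females Atp2b1 to 0.24 and Atp2b4 to 0.15, voom turned these last to 0.20 and 0.12, and age as a covariate turned Trpv6 to 0.039 and Atp2b1 to 0.014. The replicate block turned Klk1 in males to 0.00033. In the difference between changes, Slc8a1 became -0.10 with array weights and -0.16 without both libraries, Atp2b1 -0.13 with median-of-ratios scaling and Klk1 -0.12 without both libraries. Leaving out 1 library at a time, the ranges in males were -0.33 to 0.33 for Slc8a1 and -0.17 to 0.073 for Klk1. In females they were -1.70 to 0.96 for S100g, -0.84 to 0.26 for Trpv5, -0.49 to 0.24 for Trpv6, -0.045 to 0.049 for Atp2b1, -0.11 to 0.035 for Atp2b4, -1.30 to 0.013 for Casr and -2.29 to 0.041 for Klk1, and Klk1 in the difference ran from -0.077 to 2.25. Same-numbered control and Kl/Kl libraries did not deviate together (correlations -0.14 to 0.03 in males and -0.05 to 0.15 in females), so they share only a number. Low counts limit Cldn14 and Trpv6.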

Other observations

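Other marker lists gave these counts without the libraries that stood apart. Of 10 proximal tubule markers in males, the lactate transporter Slc5a12 rose by 1.36 (limma adjusted p = 0.0194), while the organic anion transporter Slc22a6 fell by 2.11 (limma adjusted p = 0.0187) and the amino acid transporter Slc7a13 fell by 3.97 (limma adjusted p = 0.0012). Of 5 tested macrophage markers in males, Cd14 rose by 1.64 (limma adjusted p = 0.0252) and Lyz2 by 1.53 (limma adjusted p = 0.0134). Csf1r, the receptor of macrophage growth factor, lay the other way, at 2.75 ± 0.598 (SD, n = 2) and 1.36 ± 0.413 TPM (SD, n = 5), not called by limma (adjusted p = 0.0778) and called lower by voom. The heart marker Myl7 rose in males from 0.0774 to 0.353 TPM (limma adjusted p = 0.0182). With control 3 included, Slc5a12 (limma adjusted p = 0.0522) and Myl7 (limma adjusted p = 0.0678) did not pass, and the macrophage marker Cd68 did as well as Cd14 and Lyz2. In females limma and voom called 0 genes of these lists. At an unadjusted p under 0.05 there were 1 higher and 1 lower proximal tubule marker, 1 higher macrophage marker and 0 heart markers. Of all genes in females, 10.8% were higher and 3.93% lower at that p. Of the thick ascending limb, airway, adipocyte, smooth muscle, red blood cell, endothelial, parathyroid and intestinal markers tested, limma called 0 in either sex. At an unadjusted p under 0.05 there were 1 thick ascending limb and 1 intestinal marker in males, each lower, and 1 airway marker in females, higher. Voom called 1, the endothelial Pecam1, higher in males. Of all genes in males, 14.7% were higher and 13.3% lower at the unadjusted p, and voom called 8.55% higher. Umod, a thick ascending limb protein of urine, was 224 ± 23.8 (SD, n = 2) and 259 ± 28.6 TPM (SD, n = 5) in males and 284 ± 76.9 (SD, n = 4) and 292 ± 25.9 TPM (SD, n = 3) in females. Csf1r and Pecam1 were named after their values had been seen.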
